A study of Drosophila melanogaster with 6 samples.

Results

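Peptidoglycan recognition proteins (PGRPs) are the fly's main sensors and scavengers of peptidoglycan, the polymer of bacterial cell walls. Members with amidase activity cut peptidoglycan into fragments that no longer signal, whereas receptor members bind the meso-diaminopimelic acid type made by most Gram-negative bacteria and start the Imd pathway, which ends in the NF-kappaB factor Relish and in antimicrobial peptides. In the midgut, where bacteria are present at all times, the amidases are known to keep that response low. The 10 members described here were found in the count tables by their current gene symbols, among 15682 gene identifiers. They comprise 5 amidase genes (PGRP-LB, PGRP-SC1a, PGRP-SC1b, PGRP-SC2 and PGRP-SB1), 2 receptor genes (PGRP-LC and PGRP-LE) and 3 other genes (PGRP-LA, PGRP-LF and PGRP-SD).

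Their transcripts were measured by RNA-seq in the midgut, the digestive and absorptive part of the fly intestine. Both groups were virgin Drosophila melanogaster of the white-eyed laboratory strain w1118, wild type by their sample titles, 15 days old and reared at 29 °C with no more than 15 flies to a vial. One group held 3 female libraries and the other 3 male libraries, each from a pool of 30 guts, and no label says whether the pools came from separate cultures. A p-value here therefore reflects only how these pools differ from each other, some of which may be technical. Library totals lay between 23825935 and 38406746 counts. A count of 3, taken as the floor, stood for 0.0781 to 0.124 CPM (the usual scaling of counts to library size, here with TMM factors), and this covers counting error only.

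Fold changes are log2 of female over male, with a standard error derived from the edgeR test statistic, and a gene was called at a Benjamini-Hochberg adjusted p under 0.05 over 8941 genes tested. By that rule 9.39% of the tested genes were called, 3.87% as higher and 5.53% as lower in females, and the median log2 fold change of all genes was -0.02. The tissue label was checked against 8 midgut markers, which summed to 64099 to 80319 CPM in females and 53162 to 66120 CPM in males. Nearly all of that came from the protease genes alphaTry, betaTry and Jon65Aiv. They averaged 28450, 18477 and 23511 CPM in females and 23886, 15581 and 18224 CPM in males. The means of mex1, Myo31DF, GATAe, pros and Tk lay between 9.09 and 658 CPM in either sex. Hemocyte markers, whose cells also use PGRPs, summed to at most 2.55 CPM in females and 3.57 CPM in males, with He at 0 in all libraries. Fat body markers, another site of PGRP expression, summed to 54.8 to 293 CPM in females and 9.15 to 29.3 CPM in males, with Fbp1 at 0 and Lsp2 at no more than 0.260 CPM in any library. The higher sum in females came from the yolk protein genes Yp1, Yp2 and Yp3, which females are known to make. They averaged 64.3, 27.5 and 30.9 CPM in females and 1.62, 0.741 and 2.37 CPM in males. Female replicate 1 was far the highest, with Yp1 at 145 CPM against 24.9 and 23.2 CPM in female replicates 2 and 3. None was called in edgeR, while DESeq2 called Yp1 and Yp3, and limma-voom called Yp3. Yp1 and Yp2 passed the filter on low counts through the female libraries. For both, a higher female level was therefore built into the choice of genes. The lipoprotein genes of the list, apolpp and Apoltp, averaged 12.8 and 0.994 CPM in females and 12.7 and 1.21 CPM in males. Ovary markers stayed at or below 0.646 CPM in sum. Testis and accessory gland markers were near 0 in all libraries but male replicate 3, where they summed to 23.0 CPM.

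Of the 10 members, 9 passed the filter on low counts, and 3 of these were called, against 9.39% of all tested genes. All 3 were lower in females: PGRP-LB, PGRP-SC1a and PGRP-SC1b. At an unadjusted p under 0.05 there were 5, PGRP-LE and PGRP-SD being the others, where 21.0% of all tested genes lay under that value. edgeR and limma-voom called 0 members higher, and DESeq2 called 1, PGRP-LE. PGRP-SC2, by far the most abundant member, had a fold change smaller than its standard error, and so did PGRP-LA. The median log2 fold change of the 9 genes was -0.94, which is the value of PGRP-LF, a gene of few counts that was not called. Negative values were found in 7 of the 9 and in 52.8% of all tested genes. Those 7 included PGRP-LA at -0.05 and both PGRP-SC1 genes, which are near-identical copies.

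**Figure D1:**
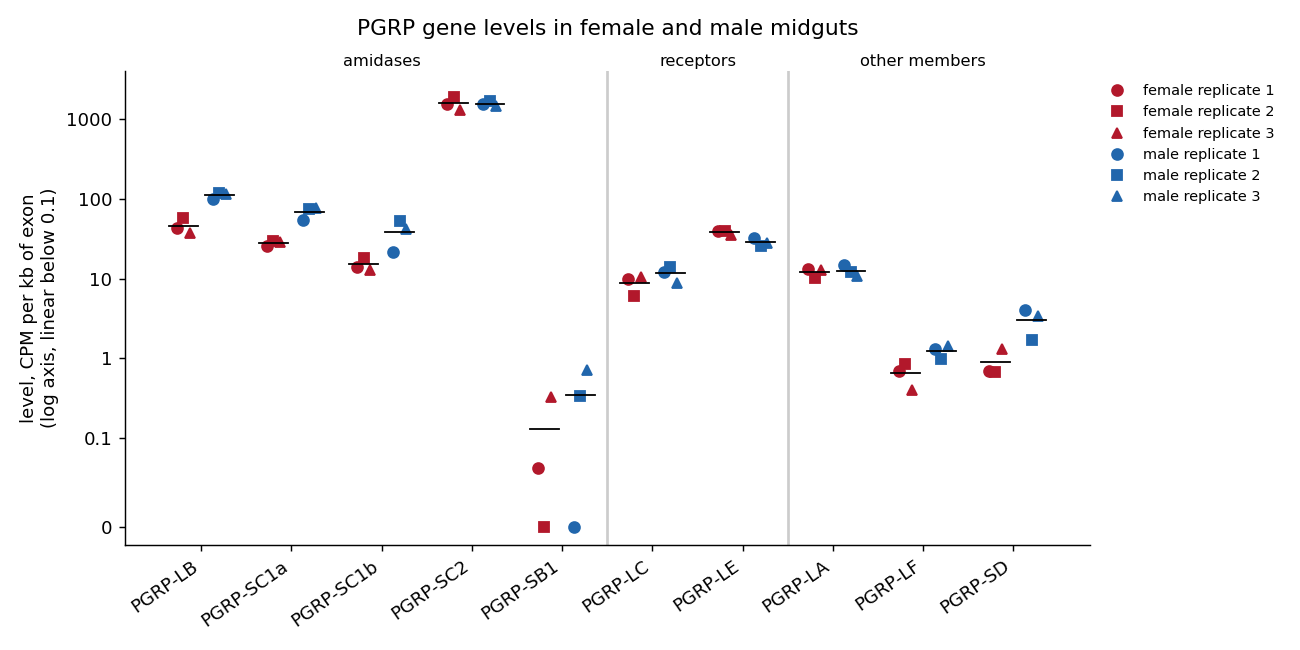
Level of each PGRP gene in CPM per kilobase of annotated exon, on a log axis that is linear below 0.1, for 3 female libraries (red, left) and 3 male libraries (blue, right); bars are means of 3. PGRP-SC2 stands far above the other members in all libraries, and PGRP-SB1 lies near 0 in both sexes.

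Per kilobase of exon, the members spanned a range from near 0 to the top of the transcriptome. PGRP-SC2, a secreted amidase, averaged 1580.4 ± 300.4 CPM per kb in females and 1558 ± 113 CPM per kb in males (SD over 3 libraries a sex), a level above that of 99.3% of tested genes. In females PGRP-LB came next at 45.9 CPM per kb, followed by PGRP-LE at 38.3, PGRP-SC1a at 27.9, PGRP-SC1b at 15.1, PGRP-LA at 12.2 and PGRP-LC at 8.90. In males the order was PGRP-LB at 112 CPM per kb, PGRP-SC1a at 68.4, PGRP-SC1b at 38.8, PGRP-LE at 28.6, PGRP-LA at 12.6 and PGRP-LC at 11.8. PGRP-LE thus stood above both PGRP-SC1 genes in females and below both in males by its mean. The PGRP-SC1 genes are near-identical copies, and how reads that match both were counted is not known. The level of each copy may be too low, so its place beside PGRP-LE is uncertain. In that order the libraries of the following neighbours overlapped: PGRP-LB with PGRP-LE, PGRP-SC1b with PGRP-LA, PGRP-LA with PGRP-LC, and PGRP-SD with PGRP-LF in females, and PGRP-SC1b with PGRP-LE, and PGRP-LA with PGRP-LC in males.

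At the low end of the levels were PGRP-SD, PGRP-LF and PGRP-SB1. PGRP-SD averaged 0.896 CPM per kb in females and 3.05 in males, PGRP-LF 0.650 and 1.24, and PGRP-SB1 0.131 and 0.351. Lengths were taken from the union of annotated exons, and genes with many transcripts move with that choice. PGRP-SC1b has 2 annotated transcripts, of 1649 and 626 bases, and counted against the shorter it would stand at 39.7 CPM per kb in females and 102 in males, above PGRP-SC1a in both. PGRP-LC, with 10 annotated transcripts, would stand at 28.4 and 37.6 against its shortest, PGRP-LB at 88.2 and 214, PGRP-LE at 56.8 and 42.4, and PGRP-LA at 27.0 and 28.0.

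PGRP-LB, an amidase of the gut and the fat body and a known target of the Imd pathway, was lower in females. It stood at 76.0, 103 and 65.8 CPM in female replicates 1 to 3, against 176, 214 and 205 CPM in male replicates 1 to 3. The highest female library lay well under the lowest male library, and all females lay under all males in 13.8% of tested genes. The log2 fold change was -1.28 ± 0.18, a female level 0.411 times that of males (edgeR adjusted p = 0.00122). The call held in all 14 alternatives, with log2 values of -1.49 to -1.15. In bulk tissue, fewer cells that express a gene and less RNA per cell cannot be told apart.

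PGRP-SC1a and PGRP-SC1b are near-identical copies that lie in a cluster on arm 2R with PGRP-SC2, in the Ensembl annotation of BDGP6, and reads may have been split between the copies in the authors' counting. PGRP-SC1a stood at 15.0, 17.6 and 16.8 CPM in female replicates 1 to 3, against 31.9, 43.6 and 45.1 CPM in male replicates 1 to 3. Its libraries did not overlap, as was so for 26.2% of tested genes. Its log2 fold change was -1.29 ± 0.16 (edgeR adjusted p = 0.000731). It was called in all 13 alternatives that kept it as a gene of its own.

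PGRP-SC1b stood at 23.3, 30.3 and 21.0 CPM in female replicates 1 to 3, against 35.6, 87.4 and 68.9 CPM in male replicates 1 to 3. Male replicate 1 stood close to the females and well under the other male libraries. Its log2 fold change was -1.36 ± 0.31 (edgeR adjusted p = 0.0259). The call was lost without female replicate 1 (edgeR adjusted p = 0.081), without female replicate 3 (0.109), without male replicate 3 (0.145) and with no filter beyond 1 count (0.0907). Summed into a single row, the copies differed by log2 -1.33 ± 0.22 (edgeR adjusted p = 0.00385). The ratio of PGRP-SC1b to PGRP-SC1a counts was 1.56, 1.72 and 1.26 in females and 1.11, 2.003 and 1.53 in males, so that the sexes overlapped in it.

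PGRP-SC2, the neighbour of PGRP-SC1b in the same cluster, was not called. It stood at 1154, 1415 and 968 CPM in female replicates 1 to 3, against 1162, 1247 and 1079 CPM in male replicates 1 to 3. The female libraries spanned the whole range of the males. The log2 fold change was 0.02 ± 0.17 (edgeR adjusted p = 0.972), and its sign turned with no scaling (-0.044), without female replicate 2 (-0.13) and without male replicate 3 (-0.032). PGRP-SB1, an amidase made by fat body after infection, did not pass the filter: it had 1, 0 and 6 counts in female replicates 1 to 3, against 0, 7 and 17 counts in male replicates 1 to 3. With 7 counts in all females and 24 in all males, it was not tested between the sexes.

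**Figure D2:**
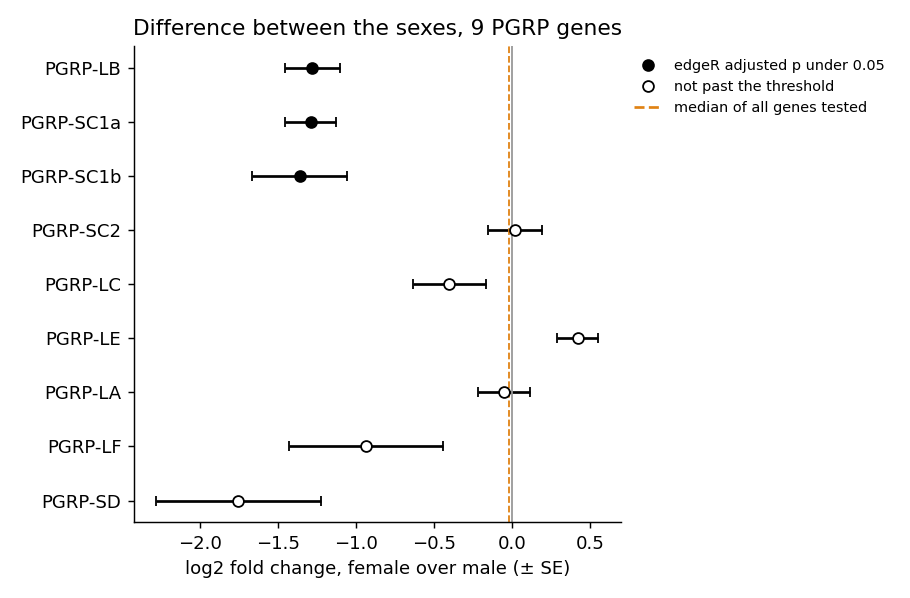
Log2 fold change of female over male with its standard error for the 9 PGRP genes that passed the filter, with filled points for genes called at an edgeR adjusted p under 0.05. PGRP-LB, PGRP-SC1a and PGRP-SC1b lie between -1.36 and -1.28, whereas PGRP-SC2 lies at 0.02 and PGRP-LE at 0.42.

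Ratios within a library do not depend on how libraries are scaled, and in them too PGRP-LB and the PGRP-SC1 genes were low beside PGRP-SC2 in females. For every 100 counts of PGRP-SC2 there were 6.59, 7.27 and 6.79 counts of PGRP-LB in female replicates 1 to 3, against 15.1, 17.1 and 19.0 in male replicates 1 to 3. The libraries of the sexes did not overlap (p = 0.1 by an exact two-sided permutation test, which cannot go lower with 3 libraries a sex). The sum of both PGRP-SC1 genes came to 3.32, 3.38 and 3.90 counts per 100 of PGRP-SC2 in females, against 5.81, 10.5 and 10.6 in males, again without overlap (exact two-sided permutation p = 0.1). These ratios were chosen after the values were seen.

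The family as a whole took a like share of each library. All 10 members together held 0.141% ± 0.0165 of female counts and 0.163% ± 0.0145 of male counts (SD over 3 libraries a sex), with libraries that overlapped. PGRP-SC2 made up 81.6% ± 1.87 of the family's female counts and 72.7% ± 1.88 of its male counts. PGRP-LB made up 5.62% ± 0.397 and 12.4% ± 1.11 of them in female and male libraries.

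**Figure D3:**
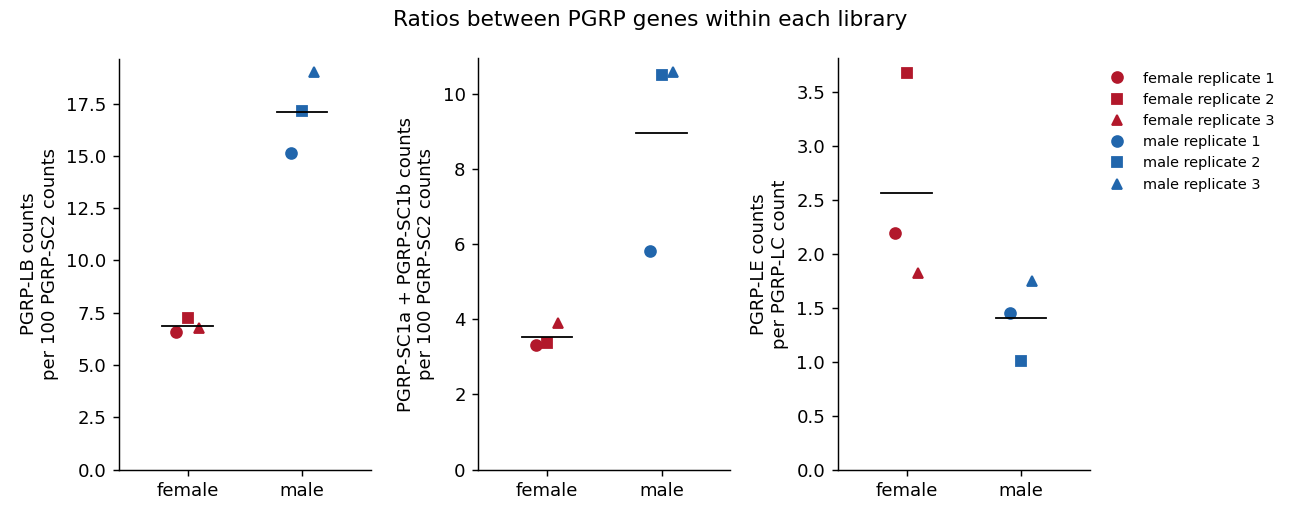
Ratios of counts between PGRP genes in each library, females (red) left of males (blue), with the mean of 3 as a bar; each axis starts at 0. PGRP-LB per 100 PGRP-SC2 counts lies at 6.59 to 7.27 in females and 15.1 to 19.0 in males, and PGRP-LE per PGRP-LC count is higher in all females than in any male.

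Markers of tissues next to the midgut were looked at in the same libraries. Of the 5 tested, 1 was called, against 9.39% of all tested genes. The 3 hindgut markers summed to 43.3 to 53.6 CPM in females and 59.6 to 67.9 CPM in males, most of it from drm, which was not called (log2 -0.40 ± 0.13, edgeR adjusted p = 0.0811), while byn stood at no more than 1.78 CPM and otp at no more than 0.207 CPM in any library. The 4 Malpighian tubule markers summed to 36.6 to 45.5 CPM in females and 48.8 to 69.1 CPM in males. Most of that was Irk2, a potassium channel gene that was itself lower in females (log2 -0.73 ± 0.16, edgeR adjusted p = 0.0146), a call lost without female replicate 2 (0.0556) or 3 (0.0706), while Uro, an enzyme gene of the tubule, was at 0 in all libraries but male replicate 3 (0.104 CPM). The other markers of the tubule list, tsh and Best2, were not called and leaned the other way (log2 0.26 ± 0.23 and 0.50 ± 0.76). The part of these tissues in the differences was not tested.

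The receptor genes leaned apart, and neither was called. PGRP-LE, on the X chromosome, codes for a receptor that works inside cells and is known for sensing peptidoglycan in the midgut. It stood at 82.5, 82.8 and 72.8 CPM in female replicates 1 to 3, against 66.6, 53.3 and 58.0 CPM in male replicates 1 to 3. All female libraries lay above all male libraries, where 26.2% of tested genes had no overlap of the sexes in either direction. The difference of log2 0.42 ± 0.13 missed the threshold (edgeR adjusted p = 0.0764). It passed in DESeq2 (adjusted p = 0.0338), which called 13.5% of the tested genes, and in edgeR without male replicate 1 (adjusted p = 0.0375).

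PGRP-LC, on arm 3L, codes for the transmembrane receptor of the Imd pathway. It stood at 37.6, 22.5 and 39.9 CPM in female replicates 1 to 3, against 46.0, 52.9 and 33.2 CPM in male replicates 1 to 3. The sexes overlapped, and the log2 fold change of -0.40 ± 0.23 did not pass (edgeR adjusted p = 0.379). For each PGRP-LC count there were 2.20, 3.68 and 1.83 counts of PGRP-LE in females, against 1.45, 1.01 and 1.75 in males. The sexes did not overlap in this ratio (exact two-sided permutation p = 0.1), though female replicate 3 and male replicate 3 were close. Since the ratio pairs genes seen to lean apart in these same libraries, it is no separate test of either.

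The members differed in how far the libraries of a sex lay apart. The within-sex SD of log2(CPM + 1) was 0.39 for PGRP-LC, above that of 94.4% of tested genes with a mean of at least 10 CPM. That of PGRP-SC1b was 0.50, above 97.4%, and that of PGRP-LE was 0.13, above 29.0%. For PGRP-LB, PGRP-SC1a, PGRP-SC2 and PGRP-LA the values were 0.25, 0.21, 0.21 and 0.22, above 76.0%, 59.9%, 60.4% and 64.1%.

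Visceral muscle markers (Mhc, Mlc2, Act57B, sls and bt) varied across the libraries in much the same order as PGRP-LC. Their sum was 997, 426 and 728 CPM in female replicates 1 to 3, against 878, 1150 and 565 CPM in male replicates 1 to 3. Female replicate 2 and male replicate 3 were the lowest of their sex in both measures, and male replicate 2 was the highest of the males in both. Among females the highest library was replicate 3 for PGRP-LC and replicate 1 for the markers. This order was not particular to muscle. The immune genes Dif and Dredd were also lowest of their sex in female replicate 2 and male replicate 3. Both were highest of the males in male replicate 2, whereas other genes, such as Rel, had another order. None of the 5 muscle markers was called between the sexes. The part of muscle in the PGRP-LC values was not tested.

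**Figure D4:**
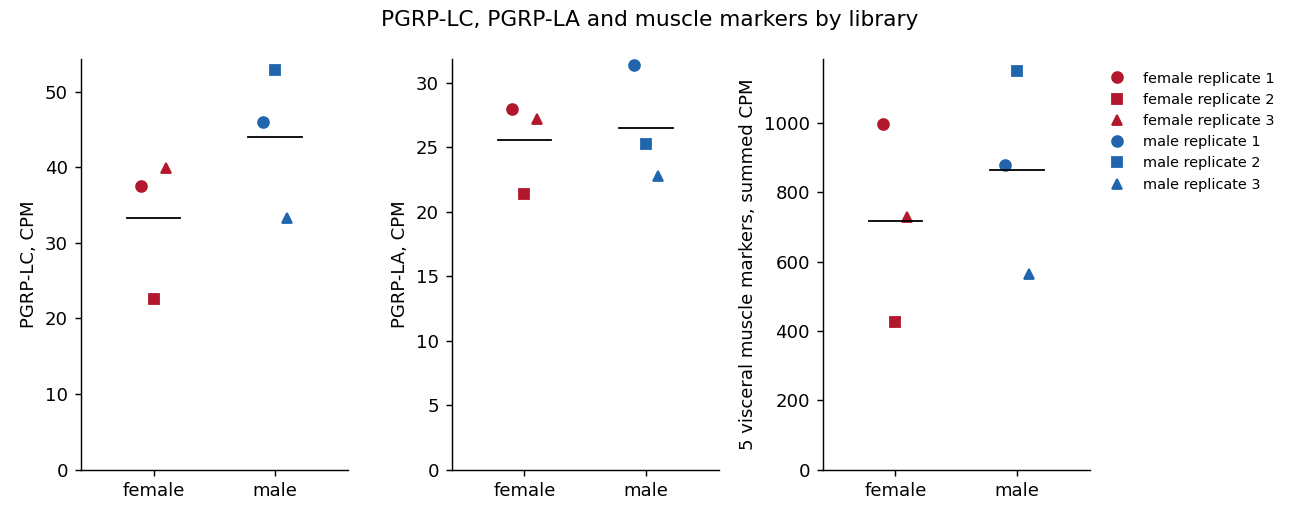
CPM of PGRP-LC and PGRP-LA and summed CPM of 5 visceral muscle markers in each library, females (red) left of males (blue), with the mean of 3 as a bar; each axis starts at 0. Female replicate 2 (square) and male replicate 3 (triangle) are the lowest of their sex in all 3 panels.

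PGRP-LA, which lies directly beside PGRP-LC and codes for a protein that promotes Imd signalling in barrier epithelia and is thought not to bind peptidoglycan, differed between the sexes by less than its standard error. It stood at 28.0, 21.4 and 27.2 CPM in female replicates 1 to 3, against 31.4, 25.3 and 22.7 CPM in male replicates 1 to 3. The log2 fold change was -0.05 ± 0.17 (edgeR adjusted p = 0.92), and it turned positive without female replicate 2 (0.06) or male replicate 1 (0.10). PGRP-LF, on the other side of PGRP-LC, codes for a membrane protein that blocks PGRP-LC. It stood at 0.953, 1.14 and 0.544 CPM in females, against 1.77, 1.34 and 1.95 CPM in males. Its libraries did not overlap, as was so for 26.2% of all tested genes, and its log2 fold change of -0.94 ± 0.49 did not pass (edgeR adjusted p = 0.326). PGRP-LF shares 602 bases of exon with UGP on the opposite strand, and since it is not known whether counting used strand, its low values are uncertain.

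PGRP-SD, a secreted recognition protein studied first for its part in the Toll response to Gram-positive bacteria, had the most negative fold change of the family. It stood at 0.497, 0.490 and 0.951 CPM in female replicates 1 to 3, against 2.92, 1.22 and 2.45 CPM in male replicates 1 to 3. These are 12 to 28 counts in a female library and 40 to 94 in a male library. Females lay under males without overlap, as in 13.8% of tested genes. Even so, the log2 fold change of -1.75 ± 0.53 missed the threshold in edgeR (adjusted p = 0.0643). DESeq2 called it (adjusted p = 0.0125), and no edgeR or limma-voom alternative did. Its exons share 35 bases with CG7492 on the opposite strand.

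The genes that connect PGRPs to their response were set beside them. Of 14 Imd signalling genes, from the adaptor imd to the transcription factor gene Rel, edgeR called 0, against 9.39% of all tested genes. Their median log2 fold change was -0.05. At an unadjusted p under 0.05 there was 1, and DESeq2 called 1, in both cases ben, and limma-voom 0. ben codes for a ubiquitin-conjugating enzyme. It averaged 166 ± 4.69 CPM in female libraries and 124 ± 9.79 CPM in male libraries (log2 0.42 ± 0.12, edgeR adjusted p = 0.0616). imd itself averaged 17.5 ± 1.20 and 19.7 ± 1.35 CPM in females and males, and Rel 111 ± 6.81 and 126 ± 26.2 CPM, with log2 fold changes of -0.17 ± 0.14 and -0.18 ± 0.16.

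Of 12 negative regulators of Imd, 1 was called, against 9.39% of all tested genes. It was pirk, whose product binds PGRP-LC and lowers its signalling and which is itself induced by the pathway. pirk stood at 15.4, 36.4 and 15.3 CPM in female replicates 1 to 3, against 138, 141 and 99.1 CPM in male replicates 1 to 3. It was lower in females (log2 -2.49 ± 0.38, edgeR adjusted p = 0.00774), a call missed without male replicate 1 (0.0515). In pirk as in PGRP-LB, female replicate 2 was the highest of the females. The same was so for PGRP-SC1a, PGRP-SC1b, PGRP-SC2, PGRP-LE and PGRP-LF, of which PGRP-SC2, PGRP-LE and PGRP-LF were not called. The other 11 regulators, among them casp, CYLD and trbd, had log2 fold changes of -0.50 to 0.17.

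Antimicrobial peptide genes, the best known targets downstream of PGRP-LC and PGRP-LE, were low, with no gene above 4.38 CPM in any library. Of 17 found in the tables, 4 passed the filter: AttD, DptA, Drsl2 and Drsl3. AttD and DptA passed only through the male libraries, so that for them a difference in that direction was built into the choice of genes. AttD had 1 count in all female libraries and 159 in all male libraries, a ratio of male to female level of 131 with an exact 95% counting interval of 23.1 to 5195. DptA had 1 and 131 counts, a ratio of 108 with an interval of 19.0 to 4286. Both intervals cover counting error only, and the male levels were no higher than 2.09 CPM. Drsl2 and Drsl3 did not pass (log2 0.67 ± 0.82 and 0.02 ± 0.79). Of the 13 that failed the filter, Mtk was at 0 in all libraries, and Drsl5 had 0 counts in females and 172 in males, nearly all of them in male replicate 3 (4.38 CPM).

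**Figure D5:**
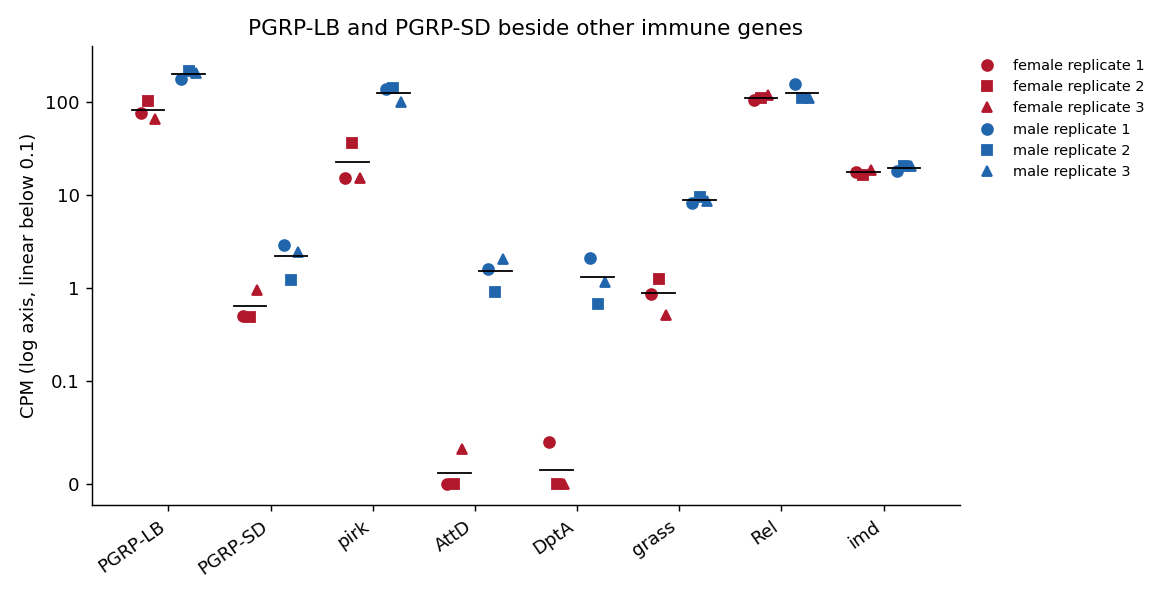
CPM of PGRP-LB and PGRP-SD beside other immune genes in each library, on a log axis that is linear below 0.1, females (red) left of males (blue), with the mean of 3 as a bar. pirk, AttD, DptA and grass lie lower in all females than in any male, as do PGRP-LB, PGRP-SD and 13.8% of all tested genes. AttD and DptA passed the filter only through the male libraries. The libraries of the sexes overlap for Rel and imd.

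In the Toll pathway, for which PGRP-SD was first studied, 2 of 14 tested genes were called, both lower in females. Of all tested genes, 9.39% were called, 5.53% as lower. The median log2 fold change of the 14 was -0.06. At an unadjusted p under 0.05 there were 4, SPE and Hayan being the others, and DESeq2 and limma-voom each called 3, Hayan being the third. Hayan, a serine protease gene, leaned the other way, at 2.20, 2.91 and 2.58 CPM in female replicates 1 to 3, against 1.03, 0.122 and 0.156 CPM in male replicates 1 to 3 (log2 2.57 ± 0.73, edgeR adjusted p = 0.0522). With 32, 4 and 6 counts in male replicates 1 to 3, Hayan passed the filter through the female libraries. For Hayan a difference in that direction was therefore built into the choice of genes. grass, a serine protease gene upstream of Toll, stood at 0.870, 1.24 and 0.510 CPM in female replicates 1 to 3, against 8.25, 9.54 and 8.57 CPM in male replicates 1 to 3 (log2 -3.32 ± 0.32, edgeR adjusted p = 0.000142). cact, the inhibitor of the NF-kappaB factors of that pathway, averaged 65.8 ± 1.75 CPM in female libraries and 103 ± 21.4 CPM in male libraries (log2 -0.64 ± 0.16, edgeR adjusted p = 0.0243). cact overlaps fzy on the opposite strand, and its call was lost without female replicates 1, 2 or 3 (edgeR adjusted p = 0.114, 0.0778 and 0.0814), without male replicates 1 or 2 (0.0675 and 0.0941) and with the replicate block (0.0543). Among 7 genes of the reactive oxygen defence of the gut, lic, a kinase gene of the p38 cascade, was lower in females, with a mean of 36.1 ± 4.91 CPM in female libraries and 60.7 ± 8.81 CPM in male libraries (log2 -0.75 ± 0.16, edgeR adjusted p = 0.0116). That call was lost without female replicate 3 (0.0517) or male replicate 2 (0.0637).

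Genes whose profile over the 6 libraries was nearest to that of a member were found by the root mean square difference of log2(CPM + 1), each profile centred on its own mean, among 5625 genes with a mean of at least 10 CPM. Ugt37B1 and crq lay nearest to PGRP-LB, at differences of 0.07 and 0.11, where the median gene lay at 0.71. CG31087 and ninaD lay nearest to PGRP-SC1a (0.11 and 0.11, median 0.67), and ninaD and CG6126 nearest to PGRP-SC1b (0.18 and 0.21, median 0.77). Acsx4 and CG10428 lay nearest to PGRP-LE (0.05 and 0.06, median 0.29). For PGRP-LC they were DIP1 and RalGPS (0.11 and 0.12, median 0.43), for PGRP-LA Pcyt1 and mop (0.03 and 0.04, median 0.26) and for PGRP-SC2 D19A and CG18622 (0.06 and 0.07, median 0.26). With so many genes and 6 libraries some close matches arise in any profile, and these are given as a description.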

How the data were processed

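The deposited files hold counts per gene, whole numbers that the authors did not normalize, in 1 table per library. The submitters' processing notes name TopHat2 2.0.11, HTSeq and build dm3. Not given in the sources used here are the strand setting, the annotation release and the handling of reads with several matches. Symbols matched 15002 of 15682 identifiers. Arms, exon lengths and overlaps were read from Ensembl's BDGP6 gene models, a build other than dm3, so coordinates are left out. Low genes were removed by filterByExpr with sex as the group (minimum count 10, minimum total 15), and the rest scaled by TMM and tested with the two-sided quasi-likelihood test of edgeR 4.0.16 in R 4.3.3 (robust, model of sex, 6 libraries). DESeq2 1.42.0, limma-voom of limma 3.58.1 and other scalings, filters and library sets were alternatives. The steps were tested on simulated data. Libraries of a sex differed far more than counting noise allows (chi-square over its degrees of freedom 31.2 or more). The members and lists were chosen with earlier results of these data known. Named are all members, list genes past the threshold or, where none passed, at most 3 with the smallest p, and the 2 nearest profiles of each member with a mean of at least 10 CPM. Other genes (imd, Rel, Dredd, Dif, casp, CYLD, trbd, Drsl2, Drsl3, Hayan, SPE, Drsl5, PGRP-SA, PGRP-SB2, PGRP-LD and markers) were named after their values were seen. No sequences were used here. Not matched in the tables and not used here were Drs, Duox, p38c, Atf-2, PPO1, esg, vas, pli and others of the lists.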

Additional observations from a re-analysis of the deposited data

How the results depend on the processing

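Of the members, PGRP-LB and PGRP-SC1a were called and PGRP-SC2, PGRP-LC, PGRP-LA and PGRP-LF were not called in any alternative that gave them a value; PGRP-SC1b, PGRP-LE and PGRP-SD changed sides as given above. The sign of PGRP-SC2 turned with no scaling (log2 -0.044), without female replicate 2 (-0.13) and without male replicate 3 (-0.032), and that of PGRP-LA without female replicate 2 (0.06) and male replicate 1 (0.10); with a library left out they ranged over -0.13 to 0.14 and -0.15 to 0.10. The cause was not tested. The count of members higher in females, 0 with all libraries, was 1 in DESeq2 and 0 to 1 when a library was left out. Members lower in females numbered 3 in edgeR, 4 in DESeq2, 2 with no filter beyond 1 count and 2 to 3 when a library was left out. For genes of the other immune lists, those lower in females numbered 6 in edgeR and in DESeq2. They numbered 4 with a filter of 5 CPM in 3 libraries and 4 to 6 when a library was left out. Genes of the other immune lists higher in females numbered 0 in edgeR, 2 in DESeq2 (ben and Hayan), 1 each (Hayan) with no filter, in limma-voom and with the replicate block, and 0 to 2 when a library was left out. Of all genes, 346 were higher in females in edgeR, 552 in DESeq2 and 164 to 419 when a library was left out, with 171 without female replicate 1, 219 without female replicate 3 and 164 without male replicate 2. The replicate block gave 261 higher and 415 lower genes against 346 and 494. Deviations of same-numbered libraries from their sex mean had correlations of -0.12, -0.20 and -0.10 across genes. Pairs with unlike numbers had correlations of -0.07 to 0.22. Deviations from a sex mean are tied to each other, so these values cannot tell whether a number marks a shared culture or day. The labels do not say so. PGRP-LF, PGRP-SD and PGRP-SB1 had few counts, and the part of depth in their missing calls was not tested.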

Other observations

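The remaining genes of the family were at low levels in both sexes. PGRP-SA, a circulating protein of Toll recognition, stood at 0.622, 2.62 and 2.34 CPM in female replicates 1 to 3, against 1.54, 1.31 and 1.04 CPM in male replicates 1 to 3 (log2 0.53 ± 0.54, edgeR adjusted p = 0.681). PGRP-LD, whose exons overlap genes on both strands, stood at 0.204 to 1.04 CPM in females and 0.701 to 1.17 CPM in males (log2 -0.53 ± 0.68, edgeR adjusted p = 0.756). PGRP-SB2, the neighbour of PGRP-SB1, had 2, 3 and 0 counts in females and 0 in each male library, both groups at or under the floor in every library.

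Transcription factors that mark regions of the midgut were set beside the family, since several PGRPs are known to be made in particular gut regions. Of 7 tested, 0 were called in edgeR, against 9.39% of all tested genes. At an unadjusted p under 0.05 there was 1, lab, the factor of the copper cell region, which DESeq2 called and limma-voom did not (18.1 to 26.2 CPM in female libraries, 14.4 to 17.2 CPM in male libraries; log2 0.56 ± 0.17, edgeR adjusted p = 0.0632). cad, a repressor of antimicrobial peptide genes in the posterior midgut, had a log2 fold change of 0.17 ± 0.13.

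Among the 8 midgut markers, 1 was called, against 9.39% of all tested genes. This was Tk, the gene of the tachykinin hormones of enteroendocrine cells. It averaged 97.3 ± 5.32 CPM in female libraries and 135 ± 8.56 CPM in male libraries (SD, n = 3 each; log2 -0.47 ± 0.12, edgeR adjusted p = 0.0335). The call was lost with the replicate block (edgeR adjusted p = 0.117), whenever 1 of the female libraries was left out (0.0641 to 0.157), and without male replicate 1 (0.0839) or 2 (0.102).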
